A study of Rattus norvegicus with 33 samples.

Results

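The core circadian clock genes followed here are Bmal1, Npas2, Clock, Per1, Per2, Per3, Cry1, Cry2, Nr1d1 and Dbp, measured in the mammary gland of female Sprague-Dawley rats at 6 stages of development. They were chosen by gene symbol, as the probe sets that the array annotation pairs with exactly 1 symbol, and each of the 10 had 1 such probe set. They are 10 of the 18166 genes that the arrays name in this way. All 10 passed the filter on low values, a log2 value above 7.645 on at least 3 arrays, together with 10986 genes in all.

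The 33 arrays came from control animals of a toxicology study, each given the vehicle, olive oil, by gavage (0.5 mL up to postnatal day 63 and 1 mL after it). RNA was taken from the fifth caudal glands of both sides. The groups were prepubertal glands at postnatal day 21 (10 arrays), peripubertal glands at day 42 (5 arrays), pubertal glands at day 63 (5 arrays), lactating glands at day 146 after 28 days of lactation (3 arrays), parous glands at day 181 (5 arrays) and nulliparous glands at day 181 (5 arrays). Rats of day 21 were still housed with their dams. The labels give 3 batches: batch 1 held 6 prepubertal arrays and 3 each of the peripubertal, pubertal, parous and nulliparous arrays; batch 2 held 4 prepubertal, 2 peripubertal, 2 pubertal and 3 lactation arrays; batch 3 held 2 parous and 2 nulliparous arrays. Batch 3 is also the only batch whose RNA was prepared with another extraction kit, which the submitters used for some adult glands that held more fat, so batch, kit and fat content cannot be told apart there. All rats of a stage were killed on 1 day and at any point of the oestrous cycle. The hour of killing is not given in the sources used here, so stage, day and hour of collection cannot be told apart in any comparison. The series record counts 10 prepubertal animals and the sample notes count 5 per stage; if prepubertal arrays share animals, the errors given here are too small.

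The circadian clock is a transcriptional loop that runs in nearly every tissue. BMAL1 pairs with CLOCK or its paralogue NPAS2, binds E-boxes and switches on the Per and Cry genes, whose proteins return to the nucleus and repress BMAL1 and its partner. A second loop runs through NR1D1 (REV-ERB alpha), which is switched on by the same E-boxes and represses Bmal1, and DBP is an output factor that binds D-boxes in target promoters. In tissues collected around the clock, transcripts of Bmal1 and Npas2 peak at about the opposite time of day from those of the Per genes, Nr1d1 and Dbp; in rodents, mammary clock genes are also known to be altered in pregnancy and lactation.

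These 3 promoters are shown because each holds the letters of a motif that clock factors are known to bind. They are 250 bases up to the annotated start site, on the coding strand, from RefSeq (build GRCr8), and 9 of the 10 genes had at least 1 such window, 11 windows in all; Cry1 had none listed. Capitals mark matches to the motifs searched on both strands: the canonical E-box CACGTG, the E-box variant CACGTT, the D-box TTATGNAA and the half-site AGGTCA that NR1D1 and the ROR receptors bind.
Bmal1, chr1:176766078-176766327, plus strand: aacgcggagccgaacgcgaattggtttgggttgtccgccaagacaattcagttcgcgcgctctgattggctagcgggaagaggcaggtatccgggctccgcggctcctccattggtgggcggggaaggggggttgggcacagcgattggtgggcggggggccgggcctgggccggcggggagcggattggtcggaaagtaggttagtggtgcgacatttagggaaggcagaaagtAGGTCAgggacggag
Per2, chr9:99496994-99497243, minus strand: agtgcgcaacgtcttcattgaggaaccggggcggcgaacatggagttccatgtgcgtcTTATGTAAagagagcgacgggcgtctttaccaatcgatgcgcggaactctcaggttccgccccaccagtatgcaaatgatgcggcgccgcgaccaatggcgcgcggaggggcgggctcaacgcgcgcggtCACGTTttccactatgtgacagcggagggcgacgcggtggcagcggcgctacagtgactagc
Nr1d1, second window, chr10:84229455-84229704, minus strand: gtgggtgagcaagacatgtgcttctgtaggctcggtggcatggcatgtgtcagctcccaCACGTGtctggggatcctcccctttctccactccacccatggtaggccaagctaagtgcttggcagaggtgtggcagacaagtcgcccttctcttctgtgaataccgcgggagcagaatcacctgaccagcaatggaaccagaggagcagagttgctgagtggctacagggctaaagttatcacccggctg
The half-site of Bmal1 begins 15 bases before the start site. In Per2 the D-box TTATGTAA lies 192 bases and the E-box variant 62 bases before the start, and the second Nr1d1 window has a canonical E-box 191 bases before it. The E-box variant was also found on the opposite strand in the windows of Cry2 (212 bases before the start) and in the first Nr1d1 window (174 bases before it), so 4 genes held a match and no match overlapped another. Among all 33469 rat windows of this length, 5.59% held the canonical E-box, 4.07% the variant, 3.28% the D-box and 14.1% the half-site. A match is a description of letters in a short window, and other regulatory regions of these genes were not searched.

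Across the 6 stages, Bmal1 and Npas2 of the positive arm ran opposite to Per2, Per3 and Dbp. Bmal1 and Npas2 were high in peripubertal, pubertal and lactating glands and low in parous and nulliparous glands, whereas Per2, Per3 and Dbp were low in lactation and high in both adult day-181 groups. Prepubertal glands lay between these for Bmal1, Per2 and Per3, and had the highest Per1 and Cry2. Clock was close to level across stages once batch was taken into account, and Nr1d1 followed neither pattern. In a limma F test over the 5 stage terms with batch in the model, 9 of the 10 genes differed between stages at an adjusted p under 0.05, against 65.9% of all genes tested. Per2 ranked 55 and Npas2 ranked 69 among the 10986 genes by that test, while Clock was the gene not called (adjusted p = 0.633) and Nr1d1 was just inside the threshold (adjusted p = 0.0484).

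**Figure D1:**
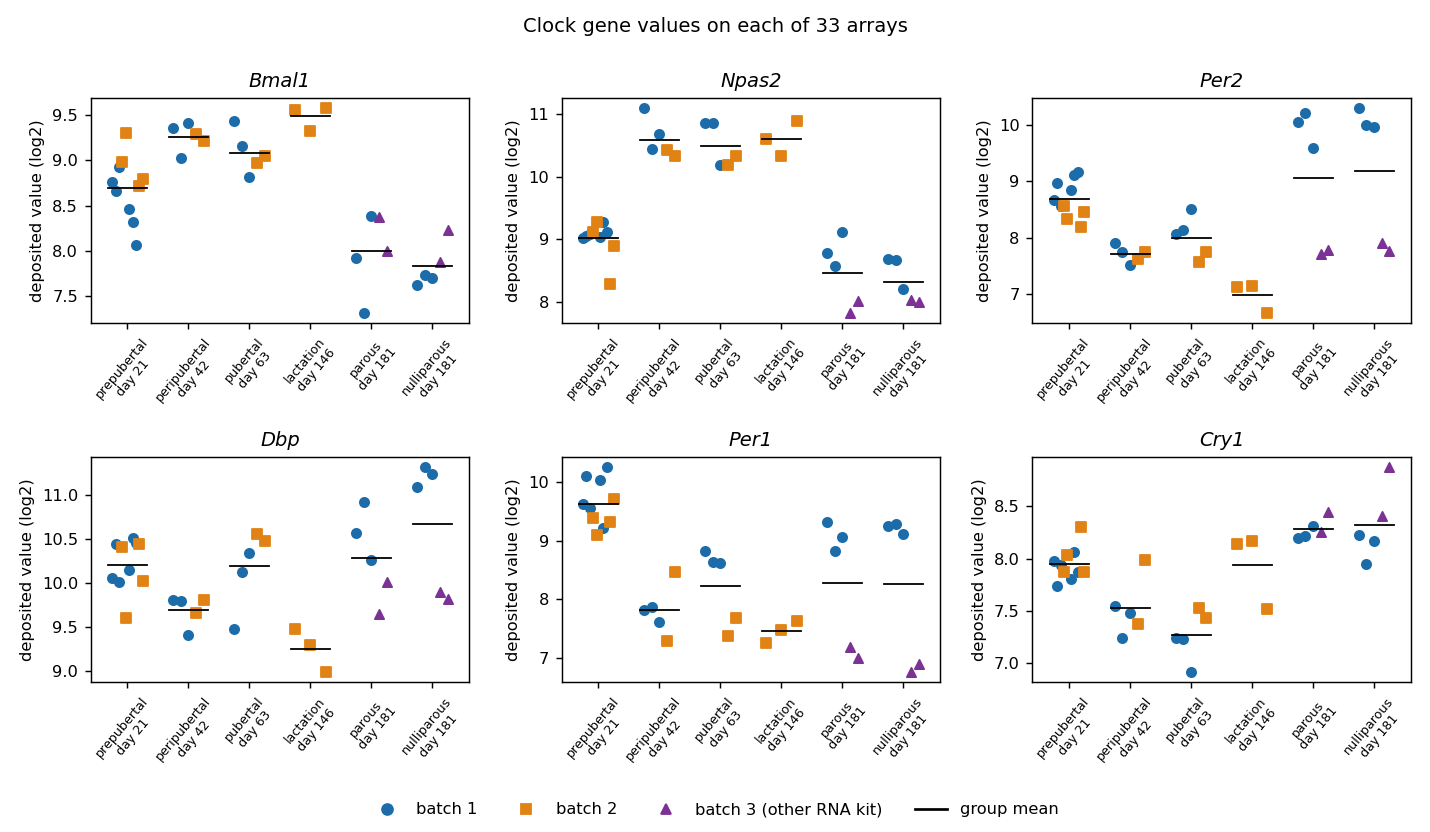
Deposited log2 value of Bmal1, Npas2, Per2, Dbp, Per1 and Cry1 (1 panel per gene) on every array, by stage from day 21 to day 181. Each array is a point, with the batch as colour and marker. Batch 3 arrays of the parous and nulliparous groups sit below the batch 1 arrays of the same group for Per1, Per2, Npas2 and Dbp. The gap is narrow for Npas2 in nulliparous and for Dbp in parous glands.

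Bmal1, which encodes the obligate partner of CLOCK and NPAS2, is read by probe set 17619710. Its log2 values were 8.07 at the lowest, 8.74 at the median and 9.30 at the highest in prepubertal glands, then 9.36, 9.02, 9.41, 9.29 and 9.21 in peripubertal glands and 9.44, 9.16, 8.81, 8.97 and 9.04 in pubertal glands. The 3 lactating glands had 9.56, 9.32 and 9.58, all above every prepubertal array. Parous glands had 7.92, 7.32, 8.39, 8.37 and 8.0, and nulliparous glands had 7.62, 7.74, 7.70, 7.88 and 8.23. Every day-181 array therefore lay below every peripubertal, pubertal and lactation array. Bmal1 rose by 0.56 ± 0.15 log2 units (SE) in peripubertal over prepubertal glands (limma, adjusted p = 0.00498). It fell by 1.32 ± 0.19 in nulliparous glands against pubertal ones (adjusted p = 0.000182) and by 1.45 ± 0.25 in parous glands against lactating ones (adjusted p = 5.65e-05). With batch terms removed, its stage means ran 9.49 in lactation, 9.36 in peripubertal, 9.19 in pubertal, 8.80 in prepubertal, 8.03 in parous and 7.87 in nulliparous glands. In that order, pubertal was above prepubertal (adjusted p = 0.0436) and prepubertal above parous (adjusted p = 0.00117), and the other neighbours did not differ beyond their error.

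Npas2, which encodes the paralogue of CLOCK that can take its place beside BMAL1, moved further than Bmal1 and in the same direction (probe set 17858614). Prepubertal glands had 8.28, 9.07 and 9.27 as lowest, median and highest log2 values, peripubertal glands had 11.10, 10.43, 10.67, 10.42 and 10.33, and pubertal glands had 10.85, 10.86, 10.19, 10.19 and 10.33. Lactating glands had 10.59, 10.33 and 10.88. Parous glands had 8.78, 8.57, 9.12, 7.83 and 8.01, and nulliparous glands had 8.69, 8.67, 8.20, 8.03 and 8.0. The arrays fell into 2 levels without overlap, with the 13 peripubertal, pubertal and lactation arrays above 10 and the other 20 below 9.3. The rise at day 42 was 1.58 ± 0.14 log2 units, or 2.98-fold, in peripubertal over prepubertal glands (adjusted p = 4.26e-09). Nulliparous glands were 3.99-fold below pubertal glands (a log2 difference of -2.0 ± 0.18, adjusted p = 3.61e-08), which ranked 2 among all genes in that comparison, and parous glands were 4.42-fold below lactating glands (-2.14 ± 0.23, adjusted p = 6.43e-08).

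Clock, which encodes the other partner of BMAL1 and is known in most tissues for a transcript that cycles little, was not called in any of the 6 comparisons (probe set 17689370). Its mean log2 value was 10.56 ± 0.25 in prepubertal (SD, n = 10), 10.54 ± 0.12 in peripubertal (n = 5), 10.50 ± 0.11 in pubertal (n = 5) and 10.76 ± 0.19 in lactating glands (n = 3). Parous glands had 10.46, 10.20, 10.29, 8.5 and 8.63, and nulliparous glands had 10.43, 10.37, 10.23, 8.60 and 8.62. The low pair in each of these groups is the pair of batch 3. With batch removed, the 6 stage means of Clock spanned 9.81 in parous to 10.02 in lactating glands, and no neighbours in that order differed. The largest fitted difference in the 6 comparisons was -0.20 ± 0.13 log2 units in parous against lactating glands (adjusted p = 0.245).

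Per1 encodes a repressor that is also an acute target of glucocorticoids and, in the brain clock, of light (probe set 17647373). Prepubertal glands had 9.10, 9.60 and 10.25 as lowest, median and highest log2 values, peripubertal glands had 7.81, 7.87, 7.62, 7.29 and 8.47, and pubertal glands had 8.82, 8.63, 8.63, 7.38 and 7.69. Lactating glands had 7.25, 7.47 and 7.64. Parous glands had 9.33, 8.83, 9.07, 7.18 and 7.0, and nulliparous glands had 9.25, 9.28, 9.12, 6.75 and 6.89. Every prepubertal array was above every peripubertal, pubertal and lactation array. Per1 fell by 1.82 ± 0.18 log2 units in peripubertal against prepubertal glands (3.54-fold, adjusted p = 4.03e-08). It rose by 1.23 ± 0.30 in parous over lactating glands (adjusted p = 0.00231), although the deposited values overlap, the batch 3 parous arrays being low. In nulliparous over pubertal glands the difference was 0.72 ± 0.24 (adjusted p = 0.0879, not called).

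Per2, the main dimerisation partner of the CRY proteins, had the widest range of the 10 genes over the batch-adjusted stage means (probe set 17866453). Prepubertal glands had 8.19, 8.63 and 9.16 as lowest, median and highest log2 values, peripubertal glands had 7.91, 7.74, 7.51, 7.62 and 7.75, and pubertal glands had 8.06, 8.13, 8.52, 7.56 and 7.75. Lactating glands had 7.13, 7.14 and 6.67, the lowest of the series. Parous glands had 10.05, 10.21, 9.59, 7.71 and 7.79, and nulliparous glands had 10.31, 10.00, 9.97, 7.90 and 7.76. The batch 1 arrays of both day-181 groups were above every array of the other stages, and the batch 3 arrays were level with peripubertal glands. Per2 fell by 0.98 ± 0.12 log2 units in peripubertal against prepubertal glands (adjusted p = 7.1e-07) and by 0.78 ± 0.17 in lactating against pubertal glands (adjusted p = 0.000604). Nulliparous glands were 3.78-fold above pubertal glands (1.92 ± 0.16, adjusted p = 5.92e-09), the smallest p of all 10986 genes in that comparison. Parous glands were 5.97-fold above lactating glands (2.58 ± 0.20, adjusted p = 1.87e-10), and the fit for that pair joins batches through the other stages, since lactation and parous arrays share no batch. The batch-adjusted order was nulliparous 9.20, parous 9.08, prepubertal 7.97, pubertal 7.29, peripubertal 6.99 and lactation 6.50, and of its neighbours the first pair and the pubertal and peripubertal pair did not differ.

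Per3, a Per family member that is dispensable for rhythm in mice, had the same order of batch-adjusted stage means as Per2 over a smaller range (probe set 17812917). Its fitted difference was larger than that of Per2 in pubertal against peripubertal and in lactating against pubertal glands. Prepubertal glands had 8.65, 9.40 and 9.61 as lowest, median and highest log2 values, peripubertal glands had 8.99, 8.61, 8.59, 8.42 and 8.21, and pubertal glands had 8.82, 9.17, 9.46, 9.04 and 9.12. Lactating glands had 8.46, 7.80 and 7.91. Parous glands had 9.99, 10.01, 9.43, 8.19 and 8.56, and nulliparous glands had 10.21, 9.99, 9.92, 8.65 and 8.25. Lactating glands lay below all pubertal glands. Per3 fell by 0.69 ± 0.14 log2 units in peripubertal against prepubertal glands (adjusted p = 0.000538) and by 0.86 ± 0.21 in lactating against pubertal glands (adjusted p = 0.00148). It rose by 1.44 ± 0.24 in parous over lactating glands (adjusted p = 4.25e-05) and by 0.75 ± 0.19 in nulliparous over pubertal glands (adjusted p = 0.0186). The last call was lost without pubertal replicate 1 (adjusted p = 0.0661) or 2 (0.0524), or without nulliparous replicate 1 (0.0626) or 2 (0.0522). It was also lost without the arrays whose T cell list mean was above 9 (0.82 ± 0.22, adjusted p = 0.0544). With no batch term limma did not call it either (0.28 ± 0.33, adjusted p = 0.581). The batch 3 nulliparous arrays, at 8.65 and 8.25, lay below every pubertal array.

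Cry1, which encodes a cryptochrome that strongly represses BMAL1 and its partner, had values near the filter (probe set 17827164, above it on 23 of 33 arrays). Prepubertal glands had 7.73, 7.91 and 8.30 as lowest, median and highest log2 values, peripubertal glands had 7.55, 7.24, 7.48, 7.37 and 7.99, and pubertal glands had 7.24, 7.23, 6.92, 7.53 and 7.43. Lactating glands had 8.14, 8.16 and 7.52. Parous glands had 8.20, 8.22, 8.31, 8.26 and 8.45, and nulliparous glands had 8.23, 7.95, 8.17, 8.41 and 8.87. All 10 day-181 arrays were above all 5 pubertal arrays, and batch 3 arrays were not low for this gene. Cry1 fell by 0.42 ± 0.11 log2 units in peripubertal against prepubertal glands (adjusted p = 0.0051) and rose by 1.01 ± 0.15 in nulliparous over pubertal glands (adjusted p = 0.000161). It also rose by 0.54 ± 0.16 in lactating over pubertal glands (adjusted p = 0.00883), the opposite direction from Per2, Per3 and Cry2 in that comparison; the call was lost without lactation replicate 1 (adjusted p = 0.054) or 2 (0.0693) and within batch 2 (0.46 ± 0.24, adjusted p = 0.194).

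Cry2, the second cryptochrome, was highest in prepubertal glands (probe set 17774671). Its mean log2 value was 10.23 ± 0.29 in prepubertal (SD, n = 10), 9.65 ± 0.13 in peripubertal (n = 5), 9.67 ± 0.05 in pubertal (n = 5) and 9.0 ± 0.27 in lactating glands (n = 3). Parous glands had 9.89, 9.95, 9.94, 8.31 and 7.88, and nulliparous glands had 10.10, 10.06, 10.00, 8.06 and 8.06. The 3 lactation arrays lay below all pubertal and peripubertal arrays. Cry2 fell by 0.58 ± 0.10 log2 units in peripubertal against prepubertal glands (adjusted p = 6.34e-05) and by 0.52 ± 0.14 in lactating against pubertal glands (adjusted p = 0.00396), and the second call was lost without lactation replicate 2 (adjusted p = 0.0581). It rose by 0.72 ± 0.16 in parous over lactating glands (adjusted p = 0.00118).

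Nr1d1, which encodes the repressor of Bmal1, did not follow the Per genes (probe set 17660843). Prepubertal glands had 8.91, 10.09 and 10.73 as lowest, median and highest log2 values, peripubertal glands had 10.25, 10.12, 10.05, 9.49 and 9.89, and pubertal glands had 10.30, 10.57, 10.59, 10.17 and 10.31. Lactating glands had 9.90, 9.32 and 9.39, all below the pubertal arrays. Parous glands had 9.62, 9.99, 9.09, 7.89 and 8.08, and nulliparous glands had 10.19, 10.66, 10.25, 7.88 and 7.87. None of the 6 comparisons called it: the fitted difference was 0.01 ± 0.18 log2 units in peripubertal against prepubertal glands and -0.55 ± 0.26 in lactating against pubertal glands (adjusted p = 0.981 and 0.0962). Among the other 9 pairs of stages, parous against pubertal glands was called, at -0.84 ± 0.24 (adjusted p = 0.0312, where 6.83% of all genes were called). In batch 1 alone, the parous arrays were below the nulliparous arrays without overlap (a difference of -0.80), whereas in batch 3 the parous arrays were above (0.11).

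Dbp, the D-box output factor, ran opposite to Bmal1 across stages (probe set 17616470). Prepubertal glands had 9.60, 10.28 and 10.51 as lowest, median and highest log2 values, peripubertal glands had 9.80, 9.79, 9.41, 9.66 and 9.81, and pubertal glands had 9.48, 10.13, 10.34, 10.56 and 10.48. Lactating glands had 9.48, 9.30 and 8.99. Parous glands had 10.57, 10.93, 10.26, 9.64 and 10.01, and nulliparous glands had 11.10, 11.32, 11.25, 9.90 and 9.82. Every parous array was above every lactation array, in spite of the low batch 3 pair. Dbp fell by 0.51 ± 0.16 log2 units in peripubertal against prepubertal glands (adjusted p = 0.0128) and by 0.99 ± 0.22 in lactating against pubertal glands (adjusted p = 0.000867). It rose by 1.53 ± 0.26 in parous over lactating glands (adjusted p = 5.43e-05) and by 0.93 ± 0.20 in nulliparous over pubertal glands (adjusted p = 0.00771). Its batch-adjusted stage means ran 10.77 in nulliparous, 10.38 in parous, 9.85 in prepubertal, 9.84 in pubertal, 9.34 in peripubertal and 8.85 in lactating glands, and the only neighbours that differed were parous and prepubertal (adjusted p = 0.0292).

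A mean over arms, taken on batch-adjusted values with each gene centred on its own mean of the 33 arrays, puts the positive arm (Bmal1, Npas2, Clock) against the negative arm (the Per and Cry genes and Nr1d1). The positive minus negative difference was -0.36 log2 units in prepubertal glands (-0.61 to 0.32), 1.09 in peripubertal (0.72 to 1.36), 0.74 in pubertal (0.49 to 1.02) and 1.42 in lactating glands (1.32 to 1.6). It was -0.87 in parous glands (-1.21 to -0.34) and -1.09 in nulliparous glands (-1.23 to -0.93). On single arrays it was above 0 in all 13 peripubertal, pubertal and lactation arrays and below 0 in all 10 parous and nulliparous arrays. It was below 0 in 9 of the 10 prepubertal arrays, replicate 5 being the exception at 0.32.

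**Figure D2:**
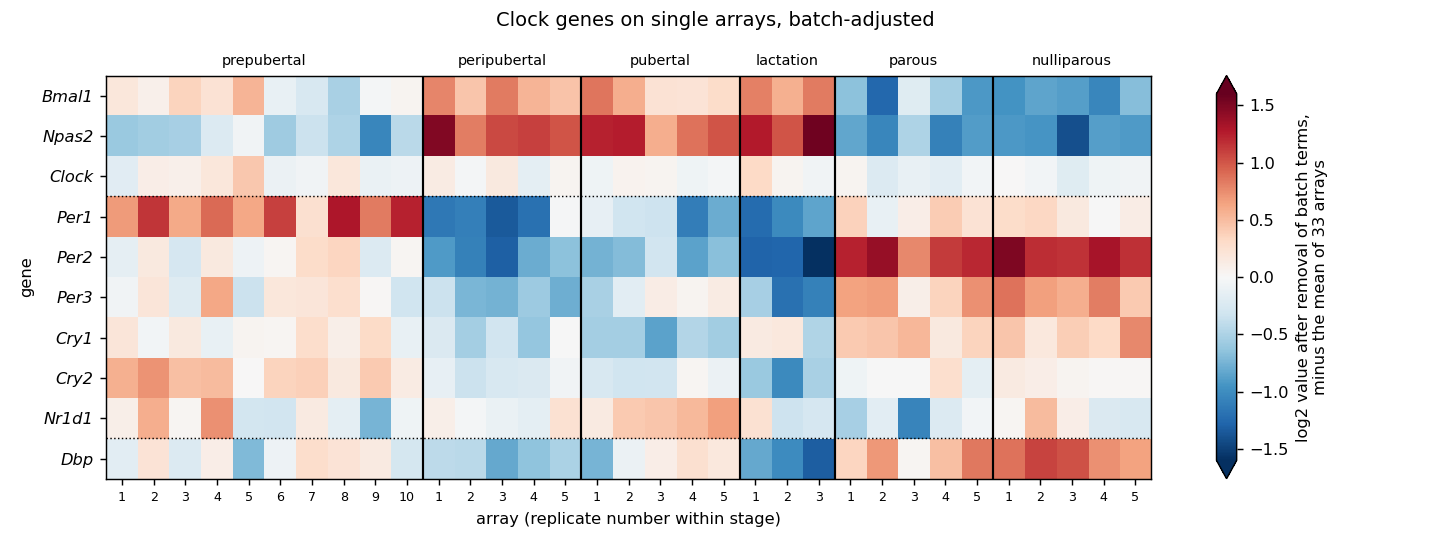
Batch-adjusted log2 value of each clock gene (rows) on each array (columns, by stage), minus the mean of 33 arrays. Bmal1 and Npas2 are above their means in the peripubertal, pubertal and lactation arrays, and Per2, Per3, Cry1 and Dbp are above theirs in the parous and nulliparous arrays.

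At day 42, 8 of the 10 genes differed in peripubertal against prepubertal glands, 2 higher (Bmal1, Npas2) and 6 lower (Per1, Per2, Per3, Cry1, Cry2, Dbp), where 32.3% of all genes were called, 17.1% higher and 15.2% lower. The median absolute difference was 0.57 log2 units over the 10 genes, against 0.16 over all genes tested. Npas2, Per1 and Per2 had no overlap between the groups, as did 5.01% of all genes. Batch 1 alone gave the same count, 2 higher and 6 lower, where it called 22.4% of all genes. Batch 2 alone, with 2 against 4 arrays, called 5.85% of all genes and Npas2 (1.48 ± 0.24), Per1 (-1.50 ± 0.28) and Per2 (-0.70 ± 0.17). The cell content of the glands differed between these stages as well: 12 of 12 luminal epithelial markers rose and 8 of 8 measured T cell markers fell. Of the other lists, 9 of 10 adipocyte, 7 of 7 B cell and 5 of 6 endothelial markers fell, and 3 of 4 basal markers rose. The mean log2 value of the luminal list ran from 9.41 to 10.11 in peripubertal and from 6.49 to 9.58 in prepubertal arrays, and that of the T cell list from 6.68 to 8.01 in peripubertal and from 6.95 to 10.58 in prepubertal arrays. With the luminal mean as a covariate, Bmal1 (0.89 ± 0.21), Npas2 (1.43 ± 0.21), Per1 (-1.74 ± 0.28), Per2 (-1.19 ± 0.17) and Per3 (-0.91 ± 0.21) were still called, where 2.82% of all genes were called. Cry1 (-0.45 ± 0.17), Cry2 (-0.33 ± 0.14) and Dbp (-0.63 ± 0.24) were not called in that fit (adjusted p = 0.205, 0.255 and 0.184), the differences of Cry1 and Dbp being no smaller than before and their errors wider. Without the arrays whose T cell mean was above 9, an alternative chosen after seeing the data, Npas2, Per1, Per2, Per3 and Cry2 were called, where 12.5% of all genes were. Bmal1 (0.52 ± 0.20, adjusted p = 0.1), Cry1 (-0.34 ± 0.17, adjusted p = 0.208) and Dbp (-0.42 ± 0.22, adjusted p = 0.239) were not. Skeletal muscle was also in some samples, with a muscle list mean above 9 on prepubertal array 10, peripubertal arrays 1 and 4, lactation array 3 and nulliparous array 5; without these arrays the Bmal1 difference was 0.53 ± 0.20 and not called (adjusted p = 0.0596). In whole glands, fewer cells of a type and less RNA per cell cannot be told apart.

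In pubertal against peripubertal glands (day 63 against day 42), limma called none of the 10 genes, against 1.22% of all genes. By unadjusted limma p, 3 of the 10 were under 0.05. These were Per3 (0.56 ± 0.17 log2 units, unadjusted p = 0.00235, adjusted p = 0.0912), Dbp (0.50 ± 0.18, unadjusted p = 0.0101, adjusted p = 0.171) and Per2 (0.30 ± 0.14, unadjusted p = 0.0407, adjusted p = 0.311). Many other genes passed that unadjusted threshold too: Per2 ranked 1438 and Nr1d1, just above it at 0.0549, ranked 1726 among 10986 genes. With array weights limma called Per3, Dbp and Per2, but its calls over all genes also rose, from 134 to 1653. The difference of Per2 was 0.52 within batch 1 and -0.03 within batch 2, whereas Per3 (0.42 and 0.77) and Dbp (0.31 and 0.79) were higher in pubertal glands in both. Without pubertal replicate 1, Per3 (adjusted p = 0.0368) and Dbp (adjusted p = 0.0357) were called, and without peripubertal replicate 1, Per3 was (adjusted p = 0.039).

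In nulliparous against pubertal glands, 6 of the 10 genes were called, 4 higher (Per2, Per3, Cry1, Dbp) and 2 lower (Bmal1, Npas2), where 4.27% of all genes were called, 1.88% higher and 2.39% lower. The median absolute difference was 0.84 log2 units over the 10 genes and 0.13 over all genes, and 4 of the 10 differed by over 1 log2 unit, as did 0.837% of all genes. Npas2, Bmal1 and Cry1 had no overlap between the groups, as did 7% of all genes. These groups share batch 1 only, and the fit on batch 1 alone, with 3 against 3 arrays, called the same number in each direction, with 2.28% of all genes. In batch 1 Bmal1 differed by -1.45 ± 0.25, Npas2 by -2.11 ± 0.20, Per2 by 1.86 ± 0.19, Per3 by 0.89 ± 0.18, Cry1 by 0.99 ± 0.12 and Dbp by 1.24 ± 0.21. With no batch term, limma did not call Per2 (1.18 ± 0.43, adjusted p = 0.0946), Per3 (0.28 ± 0.33, adjusted p = 0.581) or Dbp (0.48 ± 0.27, adjusted p = 0.232). Bmal1, Npas2 and Cry1 kept their calls in that fit. Of the cell type markers, 2 of 10 adipocyte genes rose and 1 fell, and none of 12 luminal and none of 8 T cell genes was called. The T cell list had a median difference of 0.54 log2 units, against -0.02 over all genes. Without T cell rich arrays, limma did not call Per3 (0.82 ± 0.22, adjusted p = 0.0544), and Bmal1, Npas2, Per2, Cry1 and Dbp kept their calls.

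In lactating against pubertal glands, 5 of the 10 genes were called, 1 higher (Cry1) and 4 lower (Per2, Per3, Cry2, Dbp), where 40.7% of all genes were called, 23.8% higher and 16.9% lower, so the share was near the background. The median absolute difference was 0.53 log2 units over the 10 genes and 0.30 over all genes. Per2, Per3, Cry2 and Nr1d1 had no overlap between the groups, as did 35.9% of all genes. Within batch 2, which holds the 3 lactation arrays and 2 pubertal arrays, the 4 lower genes were called, with 21.7% of all genes: Per2 at -0.67 ± 0.18, Per3 at -1.03 ± 0.28, Cry2 at -0.68 ± 0.19 and Dbp at -1.26 ± 0.24. Bmal1 (0.30 ± 0.21) and Npas2 (0.29 ± 0.20) were not called. Beside these, 7 of 12 luminal markers and 5 of 8 milk protein genes rose and 8 of 10 adipocyte markers fell in lactating glands, where the milk protein list averaged 13.50 log2 units against 10.74 in pubertal glands. In a limma fit that held the luminal markers' mean constant, Cry2 was not called (-0.35 ± 0.15, adjusted p = 0.0665), and Per2, Per3, Cry1 and Dbp kept their calls.

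In parous against lactating glands, 7 of the 10 genes were called, 5 higher (Per1, Per2, Per3, Cry2, Dbp) and 2 lower (Bmal1, Npas2), where 32.9% of all genes were called, 12.1% higher and 20.7% lower. The median absolute difference was 1.33 log2 units over the 10 genes and 0.32 over all genes, and 6 of the 10 differed by over 1 log2 unit, as did 8.96% of all genes. Bmal1, Npas2, Clock, Per2, Cry1 and Dbp had no overlap, as did 27.8% of all genes; of these, Clock (-0.20 ± 0.13) and Cry1 (0.44 ± 0.19, adjusted p = 0.0716) were not called once batch was in the model. No within-batch value exists for this pair. With no batch term, limma did not call Cry2 (0.19 ± 0.42, adjusted p = 0.768) or Per1 (0.83 ± 0.53, adjusted p = 0.245), and it called Clock lower (-1.14 ± 0.39, adjusted p = 0.0276). Per2, Per3, Dbp, Bmal1 and Npas2 kept their calls. Luminal markers fell (8 of 12) and adipocyte markers rose (7 of 10) in parous glands beside the clock gene differences. A fit that held the luminal markers' mean constant called the same clock genes in the same directions as the main fit.

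In parous against nulliparous glands of the same age, limma called none of the 10 genes, where 0.0182% of all genes were called. By unadjusted limma p, 1 of the 10, Dbp, was under 0.05 (-0.39 ± 0.18 log2 units, unadjusted p = 0.0405, adjusted p = 0.809). Dbp ranked 547 by p among 10986 genes, so other genes passed that unadjusted threshold as well. The median absolute difference was 0.13 log2 units over the 10 genes and 0.09 over all genes. Bmal1 differed by 0.17 ± 0.17 and Per2 by -0.12 ± 0.14. The Dbp difference was -0.63 within batch 1, where the groups did not overlap, and -0.03 within batch 3. A difference that misses the threshold with 5 against 5 arrays does not show that the groups were alike.

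**Figure D3:**
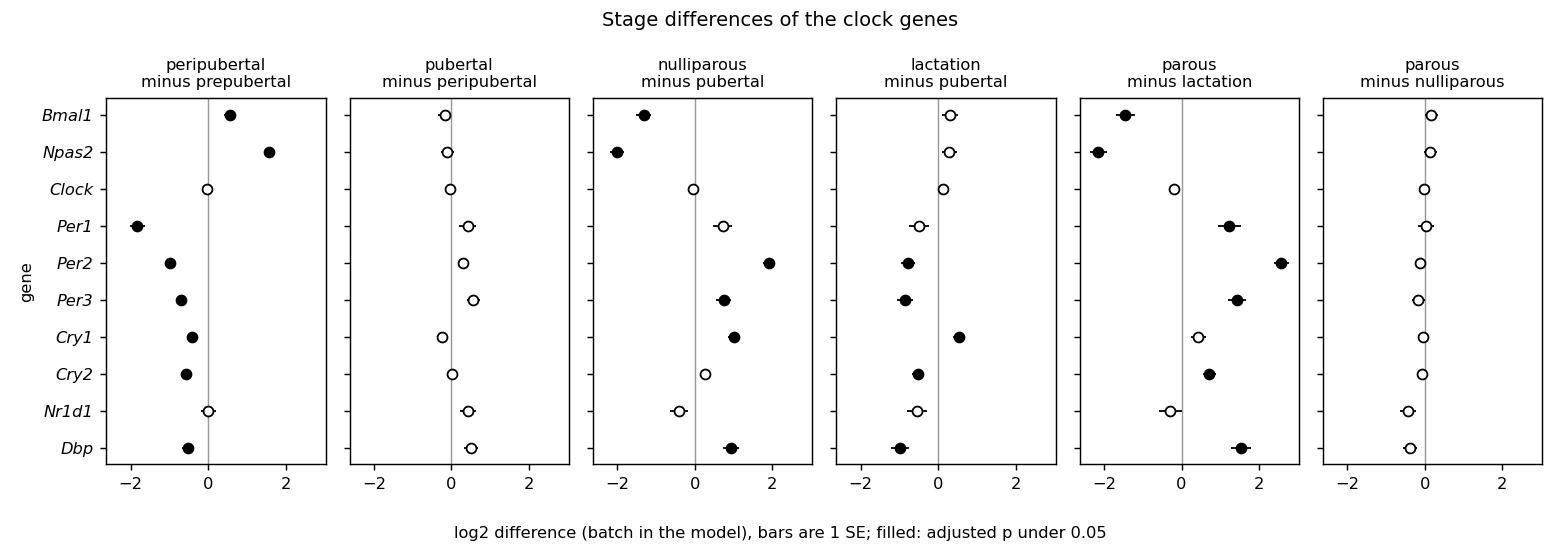
Fitted log2 difference of each clock gene (rows) in the 6 comparisons (panels, first-named stage minus second), with batch in the model and bars of 1 SE; filled points have an adjusted p under 0.05. Bmal1 and Npas2 lie opposite to Per2, Per3 and Dbp in the peripubertal against prepubertal, nulliparous against pubertal and parous against lactation panels.

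For Clock, Per1, Cry2 and Nr1d1 the batch 3 term was larger than the fitted difference of any pair of stages. The largest such differences were -0.20 for Clock (parous against lactation) and -0.84 for Nr1d1 (parous against pubertal). They were -1.90 for Per1 and -1.08 for Cry2 (both lactation against prepubertal). For the other genes the batch 3 term was smaller than the largest stage difference. Batch 3 arrays were lower than batch 1 arrays by a fitted log2 difference of -2.24 ± 0.14 for Per2, -2.19 ± 0.22 for Per1, -2.04 ± 0.22 for Nr1d1, -1.91 ± 0.12 for Cry2, -1.74 ± 0.10 for Clock, -1.51 ± 0.17 for Per3 and -1.06 ± 0.19 for Dbp. Npas2 was lower by less (-0.70 ± 0.16), Cry1 was higher (0.32 ± 0.13) and Bmal1 was not called (0.34 ± 0.18, adjusted p = 0.0801). The median batch 3 term of all genes was -0.17, and 8501 of the 10986 genes had a batch 3 term past the threshold. Batch 2 terms were smaller, from -0.50 for Nr1d1 to 0.24 for Clock, and 7 of the 10 were called. Because both day-181 groups contribute 3 batch 1 and 2 batch 3 arrays, the batch 3 term is set by these 2 groups and is balanced between them.

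Arrays of the same stage and batch also differed from each other. In the planned test, on the 10 prepubertal arrays, none of the 9 pairs with Bmal1 passed after adjustment. A permutation test over all 33 arrays was added to it, and there 4 of the 9 other clock genes deviated with or against Bmal1. Residuals from the stage and batch terms over the 33 arrays were correlated between Bmal1 and each of the other 9 genes, with permutation within stage and batch and adjustment over the 9 pairs. Bmal1 ran against Dbp (Pearson r = -0.732, permutation p = 0.00019, adjusted p = 0.0017; Spearman rho = -0.688, permutation p = 0.00074, adjusted p = 0.0067) and against Per2 (r = -0.617, p = 0.00067, adjusted p = 0.003; rho = -0.564, p = 0.0016, adjusted p = 0.0071, permutation). It ran against Per3 less closely (r = -0.509, permutation p = 0.012, adjusted p = 0.026; rho = -0.478, p = 0.02, adjusted p = 0.044). It ran with Npas2 (r = 0.505, permutation p = 0.005, adjusted p = 0.015; rho = 0.502, p = 0.013, adjusted p = 0.04). Without the 2 arrays farthest from the Bmal1 median, prepubertal replicate 8 and parous replicate 2, r was -0.746 with Dbp, -0.536 with Per2, -0.489 with Per3 and 0.548 with Npas2. Clock, Per1, Cry1, Cry2 and Nr1d1 did not pass, with r between -0.194 and 0.286. The share of all genes with a residual r as large was not computed, so 4 of 9 is not set against a background. Over the same residuals, other genes had r with Bmal1 of 0.569 (Rnf216), 0.451 (Lzic), 0.345 (Mark3) and 0.318 (Srsf4). Tef had -0.497 and Cers4 -0.206. These genes were picked as most like or most opposite to Bmal1 with stage differences kept. Among the 10 prepubertal arrays alone, the stage with most arrays, r with values centred within batch was -0.691 for Dbp (permutation p = 0.028, adjusted p = 0.243; rho = -0.758, p = 0.0144, adjusted p = 0.13) and -0.63 for Per2 (p = 0.0541, adjusted p = 0.243; rho = -0.624, p = 0.0613, adjusted p = 0.276), and none of the 9 pairs passed after adjustment. The Npas2 pair had r = 0.325 (permutation p = 0.376, adjusted p = 0.523) and rho = 0.091 (p = 0.808, adjusted p = 0.808) there, and r = -0.486, of opposite sign, in the 6 prepubertal arrays of batch 1. Without replicates 3 and 8 r was -0.678 for Dbp and -0.243 for Per2, so the Per2 value rests on those arrays. Within the 6 prepubertal arrays of batch 1 r was -0.737 for Dbp and -0.903 for Per2; the 4 of batch 2 are too few.

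**Figure D4:**
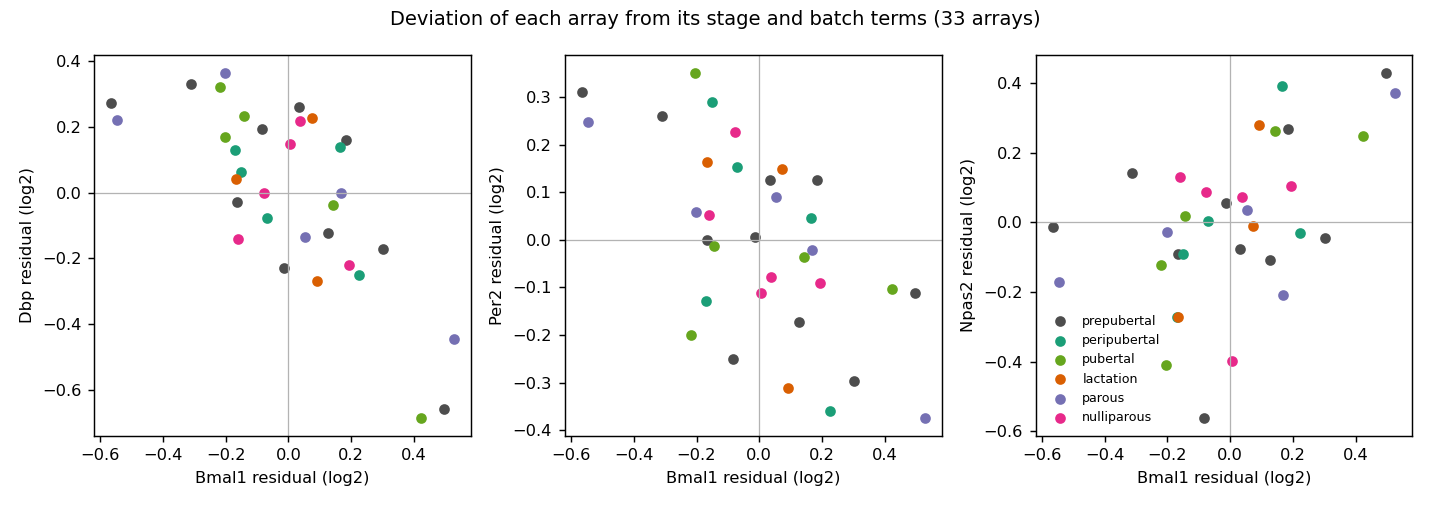
Residual log2 value of Dbp, Per2 and Npas2 (vertical axes, 1 panel each) against that of Bmal1 (horizontal axis) for each of the 33 arrays, after removal of stage and batch terms, coloured by stage. Arrays with a higher Bmal1 residual have lower Dbp and Per2 residuals and higher Npas2 residuals.

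Over the 33 batch-adjusted arrays, with stage differences kept, the genes whose values were most like those of Bmal1 among all 10986 were Npas2 (r = 0.86), Lzic (0.828), Rnf216 (0.818), Srsf4 (0.789) and Mark3 (0.779). The most opposite were Per2 (r = -0.942), Dbp (-0.903), Tef (-0.88), Per3 (-0.864) and Cers4 (-0.86). For Dbp the most alike were Per3 (r = 0.935), Per2 (0.881), Tef (0.873), Cers4 (0.806) and Aldh3a1 (0.782), and the most opposite were Bmal1 (-0.903), Raly (-0.79), Npas2 (-0.783), Srsf4 (-0.777) and Lzic (-0.773). Tef encodes a D-box factor of the same family as DBP. These r values describe arrays that share stage and batch structure and carry no test.

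Other genes tied to the clock moved at the same stages in part, and their counts stand beside the shares of all genes called, which were 32.3% in peripubertal against prepubertal, 4.27% in nulliparous against pubertal, 40.7% in lactating against pubertal and 32.9% in parous against lactating glands. Of 6 further clock outputs that were tested, 3 fell and none rose in peripubertal against prepubertal glands (Tef, Wee1, Por). In nulliparous against pubertal glands 3 rose and none fell (Tef, Wee1, Usp2). In lactating against pubertal glands 1 rose (Usp2), and in parous against lactating glands 2 rose and none fell (Tef, Wee1). Genes of these lists that are named without an adjusted p were added after their values were seen. Tef changed by -0.94 ± 0.12, 0.99 ± 0.16 and 1.18 ± 0.20 log2 units in these 3 comparisons (adjusted p = 2.41e-06, 0.000511 and 7.14e-05). Wee1, a mitotic kinase gene with E-boxes in mice, rose by 1.12 ± 0.21 in parous over lactating glands (adjusted p = 0.000202). Of 5 further regulators of the loop that were tested, 1 rose in peripubertal against prepubertal glands (Bhlhe41, which encodes the E-box repressor DEC2). In lactating against pubertal glands 1 rose, and in parous against lactating glands 1 fell. The last 2 calls are both Nfil3, whose protein competes with DBP for D-boxes: it differed by 1.11 ± 0.18 in lactating against pubertal glands and by -1.33 ± 0.20 in parous against lactating glands (adjusted p = 1.26e-05 and 1.54e-05). Its values in the 3 lactating glands averaged 8.34 ± 0.47 (SD, n = 3), against 7.16 ± 0.16 in pubertal glands (n = 5). Of 6 measured clock protein kinase and ubiquitin ligase genes, 1 rose in peripubertal against prepubertal glands (Btrc) and 1 fell in nulliparous against pubertal glands (Csnk1a1). In lactating against pubertal glands 3 rose (Csnk1e, Fbxw11, Gsk3b) and 1 fell (Btrc), and in parous against lactating glands 2 fell (Csnk1e, Fbxw11), where 20.7% of all genes fell.

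Lists of signals that can reset or acutely drive clock genes were set beside these, with the same shares of all genes as background and 1.22% in pubertal against peripubertal glands. Of 10 glucocorticoid-induced genes, 8 fell and 2 rose in peripubertal against prepubertal glands, with a median difference of -0.72 log2 units over the list and 0.00 over all genes. Tsc22d3, which encodes GILZ, fell by 1.21 ± 0.13 (adjusted p = 2.02e-07), Fkbp5, a glucocorticoid receptor co-chaperone gene, fell by 1.15 ± 0.16 (adjusted p = 5.92e-06), and Klf9, a transcription factor gene, fell by 0.84 ± 0.16 (adjusted p = 0.000157). Of 10 measured immediate early genes 1 rose in that comparison (Egr2), and of 9 heat shock and cold-response genes 2 rose (Hsph1, Hspa8) and 1 fell (Rbm3). In pubertal against peripubertal glands, Mt1 rose by 1.09 ± 0.22 and Pdk4 by 1.38 ± 0.35, while the immediate early gene Egr2 fell by 1.59 ± 0.39 and the heat shock gene Hsph1 fell by 0.85 ± 0.19 (adjusted p = 0.0119, 0.0409, 0.0371 and 0.0224). In nulliparous against pubertal glands, 1 of the 10 glucocorticoid-induced genes rose, Tsc22d3 (0.83 ± 0.17, adjusted p = 0.00538), and 3 of 9 heat shock and cold-response genes rose and 1 fell, with Hsph1 at 1.37 ± 0.22 (adjusted p = 0.000387) and the cold-induced Cirbp at -0.68 ± 0.15 (adjusted p = 0.00648). In lactating against pubertal glands, 3 of the 10 glucocorticoid-induced genes rose and 2 fell, a share near the 40.7% of all genes called, with Cdkn1a at 1.26 ± 0.22 and Fkbp5 at 1.15 ± 0.23 (adjusted p = 4.91e-05 and 0.000276). Of the immediate early genes 3 rose (Atf3, Fos, Junb). Of the 9 heat shock and cold-response genes 3 rose and 1 fell, with Dnajb1 higher by 0.82 ± 0.16 (adjusted p = 0.000118). In parous against lactating glands 2 of the 10 glucocorticoid-induced genes rose and 3 fell, with a median difference of -0.36 over the list and -0.06 over all genes. Tsc22d3 ran against that median, being higher by 1.29 ± 0.22 (adjusted p = 5.48e-05). Of the 10 immediate early genes 2 rose and 2 fell, and of the 9 heat shock and cold-response genes 2 rose and 1 fell. In parous against nulliparous glands, limma called no gene of these 6 lists. The part of these signals in the clock gene differences was not tested.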

How the data were processed

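The deposited table holds log2 expression values of 36685 probe sets on 33 Affymetrix whole-transcript arrays; the authors made these log2 values with RMA in Affymetrix Expression Console, per the submitters' processing notes, and no version of either is given in the sources used here. RMA normalizes arrays together, so a value is relative, not a copy number, and levels of different probe sets were not compared. Values ran from 2.405 to 14.228, none was missing and no 2 arrays were identical. Gene symbols came from the platform annotation: 18511 probe sets had 1 symbol, 575 had several and 17599 had none listed, and 18394 of the 18511 matched RefSeq. Where a symbol had several probe sets, the one with the highest mean was kept. Genes above the median of all values (7.645) on at least 3 arrays were tested, 10986 of 18166.

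One limma model (version 3.58.1, R 4.3.3) with stage and batch as fixed terms was fitted to all 33 arrays (25 residual degrees of freedom), with intensity-trended variances, two-sided moderated tests and Benjamini-Hochberg adjustment over all genes tested within each contrast; a call is an adjusted p under 0.05. Batch-adjusted values are deposited values minus the fitted batch terms. Correlations used 100000 permutations. The scripts were tested on simulated data with known differences. Signal on 33 arrays has no read depth, and the number of arrays limits the precision. Alternatives covered the batch term, filter, normalization, weights, samples and cell content covariates. Of the genes in the wider lists, the text gives an adjusted p for at most the 4 with the smallest in each comparison. Further list genes are named without an adjusted p and were added after their values were seen. The 5 genes most and least like Bmal1 and Dbp are also named. The members, lists and tests were chosen with earlier results of these data known. The wider lists hold 148 genes in 16 lists, of which 123 are in the table and 120 were tested.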

Additional observations from a re-analysis of the deposited data

Results flagged for a closer look

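Of 50 sets of values tested (a gene in a stage with 4 to 10 arrays), 1 had an array far from the rest: Npas2 in prepubertal replicate 9 had a log2 value of 8.28, the lowest of the 10, and the next lowest was 8.90, a gap of 0.624 of the whole range. About 1 in 20 such sets is marked by chance. Without that array the Npas2 difference of peripubertal against prepubertal glands was still called.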

How the results depend on the processing

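Of the 26 called differences of single clock genes, 1263 of 1298 refits under other settings kept direction and call, 35 lost the call and none reversed; 24 of 1716 refits of differences that were not called gained a call. The number of clock genes called in peripubertal against prepubertal glands was 8 as reported, 4 with no batch term, 3 in batch 2 alone, 5 without T cell rich arrays and 5 with the luminal covariate. In pubertal against peripubertal glands it was 0 as reported, 3 with array weights and 1 with the B cell covariate. In nulliparous against pubertal glands it was 6, and 3 with no batch term; in lactating against pubertal glands it was 5, and 2 with no batch term; in parous against lactating glands it was 7 (5 higher, 2 lower), and 6 (3 higher, 3 lower) with no batch term. Leaving out 1 array at a time gave 8 to 8, 0 to 2, 5 to 7 and 3 to 6 in these comparisons, 7 to 8 in parous against lactating glands, 0 to 0 in parous against nulliparous glands and 8 to 9 for any stage difference. Counts over all genes moved more: 3552 called at day 42 became 310 with the luminal covariate and 643 in batch 2 alone, 134 in pubertal against peripubertal glands became 5 with no batch term and 1653 with array weights, 469 in nulliparous against pubertal glands became 1993 with array weights and 204 without pubertal replicate 3, 4472 in lactating against pubertal glands became 1780 with no batch term, 3610 in parous against lactating glands became 2245 at an adjusted p under 0.01, 2 in parous against nulliparous glands became 26 with array weights, and 7239 for any stage difference became 3977 in batch 1 alone. The causes were not tested, apart from the smaller number of arrays or stricter threshold that some settings bring. For the other settings in this paragraph, no count over all genes is given beside that of the clock genes. The same holds for the refits in the comparisons above that stand without a share of all genes. A call kept or lost in them is not set against the calls of all genes. No paired analysis was possible because arrays of different stages are different animals and share no replicate numbers in the labels. Values near background limit Cry1, Per1 and Per2, which were above the filter on 23, 23 and 27 of 33 arrays. They also limit Nfil3 of the wider lists, which was below the filter value on all pubertal and parous arrays.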
